A study of Mus musculus with 8 samples.

Results

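Imprinted genes are transcribed mainly from the copy inherited from 1 parent, and their messenger RNA was followed here in mouse aortic smooth muscle cells (MASMCs) with and without *Hint1*. The members were 37 genes listed by symbol for being imprinted in mice, many of them with roles in fetal growth. Of the 37, 31 had a row among the 18533 gene symbols counted, and 25 passed a filter on low counts, among 13535 genes tested. The list held 22 genes expressed from the paternal copy, 12 from the maternal copy, and 3 whose expressed copy depends on the tissue or transcript.

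Most imprints are DNA methylation marks laid down at control regions in the egg or sperm, kept through the divisions of the embryo, and read by neighboring genes, which therefore often lie in clusters that share a control region. Paternally expressed imprinted genes tend to promote fetal growth, and maternally expressed ones tend to restrain it, while several act only in the placenta or the brain. Many belong to a set of growth genes that are high in fetal tissues and are turned down after birth.

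MASMCs were primary cells released by collagenase from aortas, stripped of adventitia and endothelium, of male mice aged 4 to 6 weeks. The series asked which transcripts depend on *Hint1*, which encodes a small histidine triad nucleotide-binding protein, in cells driven by PDGF-BB, a growth factor for smooth muscle. The groups were WT MASMCs (n = 4) and *Hint1*-/- MASMCs (n = 4), from mice that lack the gene in the whole body, and both were given PDGF-BB at 20 ng/mL for 24 hours. No sample without PDGF-BB was analysed here, so nothing below measures a response to it. The sources do not say whether the replicates came from separate mice, and p-values then measure only the spread between these samples, which may be technical. Each sample held 20778077 to 20888041 estimated counts in total. A count of RNA does not separate the parental copies, so these data give the level of each imprinted gene and not its imprint.

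The targeted gene was checked first. *Hint1* had 2272, 2336, 2364, and 2301 counts in WT replicates 1 to 4 and 713, 748, 778, and 715 in *Hint1*-/- replicates 1 to 4. All *Hint1*-/- samples lay below all WT samples, in the direction of the labels, but the level left was 32.1% of WT and not near 0. Which part of the gene the remaining counts come from was not analysed here. Its log2 fold change, *Hint1*-/- over WT throughout, was −1.64 (SE 0.037 and edgeR adjusted p = 6.77e-16). Here and below the adjusted p is that of the quasi-likelihood method in edgeR, corrected over all genes tested.

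The paternally expressed growth genes *Mest*, *Dlk1*, *Plagl1*, and *Peg3* had estimated levels more than 1.5-fold lower in *Hint1*-/- MASMCs at an edgeR adjusted p below 0.05, and no imprinted gene on the list was higher by that much. The test against a fold change of 1.5 itself (glmTreat in edgeR) called 0 of the 25 members, with a lowest adjusted p of 0.409 for *Mest* and 1 member at an unadjusted p below 0.05, where DESeq2 called 3 and limma-voom 4 by the estimated fold change, so a change beyond 1.5-fold was not shown for any of them. The 4 genes were 16% of the 25 members tested, where 383 of all 13535 genes, or 2.83%, passed the same limits of an adjusted p under 0.05 and a fold change over 1.5. By direction, 1.49% of all genes were lower and 1.34% higher past both limits. *Dlk1* passed the filter on low counts through its WT samples alone, and the members were chosen with earlier results of these data known. These counts of tested members are therefore a description, and their shares are no test against all genes. Without WT replicate 2, 2 members passed both limits. Without the limit on the fold change, 8 of the 25 members (32%) reached an edgeR adjusted p below 0.05, 7 of them lower and 1 higher, against 21.5% of all genes, 10.2% lower and 11.2% higher. The median log2 fold change of the 25 members was −0.08, beside 0.0003 over all genes tested, and 16 of the 25 had a negative value. In RNA from a whole culture, fewer cells that make a transcript and less of it in each cell cannot be told apart.

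*Mest* encodes an enzyme-like protein of the endoplasmic reticulum named for its high level in embryonic mesoderm. It lies on chromosome 6 of mm10 from 30723547 to 30748465 and had 34.4, 29.4, 33.4, and 30.0 estimated counts in WT replicates 1 to 4 and 14.5, 7.25, 19.2, and 15.8 in *Hint1*-/- replicates 1 to 4. The WT samples were alike, replicate 2 was the lowest *Hint1*-/- sample, and the highest *Hint1*-/- sample stayed well below the lowest WT sample. The log2 fold change was −1.13 (SE 0.24 and edgeR adjusted p = 0.00223), a level of 45.8% of WT, on counts low enough that sampling noise is a large part of each value.

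*Peg3* encodes a large zinc finger protein that binds DNA and heads a cluster on chromosome 7. It lies from 6703892 to 6730431 and had 117, 84, 119, and 110 counts in WT samples and 67, 66, 58, and 76 in *Hint1*-/- samples. WT replicate 2 was the lowest of its group and still lay above every *Hint1*-/- sample. *Peg3* reached 62.6% of its WT level (log2 fold change −0.68, SE 0.13 and edgeR adjusted p = 0.00100). The maternally expressed zinc finger gene *Zim1*, its neighbor in the cluster, had 20 to 35 counts in WT and 18 to 24 in *Hint1*-/- samples, which overlapped (log2 fold change −0.48, SE 0.22 and edgeR adjusted p = 0.139).

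*Plagl1* encodes a zinc finger transcription factor known to act on other imprinted genes. It lies on chromosome 10 from 13060504 to 13131694 and had 37, 49, 27, and 29 counts in WT samples and 19, 20, 20, and 23 in *Hint1*-/- samples. The *Hint1*-/- samples were close together, while the WT samples were spread and replicate 2 was the highest. The level was 58.3% of WT (log2 fold change −0.78, SE 0.22 and edgeR adjusted p = 0.0157). Without WT replicate 2 the log2 fold change was −0.58 and the adjusted p was 0.0667, and the call was lost.

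*Dlk1* and *Rtl1* are paternally expressed coding genes of a cluster on chromosome 12. *Dlk1*, which lies from 109452823 to 109463336, encodes a membrane protein with EGF-like repeats that restrains the maturation of fat cells. It had 14, 15, 11, and 12 counts in WT samples and 6, 7, 8, and 7 in *Hint1*-/- samples. The 2 genotypes did not overlap, but at most 15 counts stood behind any value. Its log2 fold change was −0.87 (SE 0.29 and edgeR adjusted p = 0.0416). The filter asked for at least 0.480 CPM, the count scaled to library size, in 4 samples, and *Dlk1* reached this in 4 WT samples and 0 *Hint1*-/- samples, so it was tested only because it was high in WT. Its call was lost in each of the 8 fits that left out 1 sample, with an adjusted p of 0.0534 to 0.104. The log2 fold change stayed about as large in those fits, from −0.94 to −0.80.

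*Rtl1*, from 109589193 to 109600330, derives from a retrotransposon and is needed for the capillaries of the placenta. Its estimated counts were 336, 340, 376, and 337 in WT samples and 275, 261, 282, and 272 in *Hint1*-/- samples. WT replicate 3 stood above the other WT samples, and all *Hint1*-/- samples lay below all WT samples. *Rtl1* reached 79.1% of its WT level (log2 fold change −0.34, SE 0.061 and edgeR adjusted p = 0.000502), which did not pass the limit on the fold change. Noncoding RNA made from the maternal copy runs opposite to *Rtl1*, and the sources do not say that strand was used in counting, so reads of the 2 strands cannot be told apart.

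*Ndn* encodes necdin, a MAGE-family protein of the Prader-Willi cluster on chromosome 7 that holds cells out of division. It had 1387, 1271, 1316, and 1290 counts in WT samples and 1235, 1153, 1139, and 1156 in *Hint1*-/- samples. The gap was narrow, with *Hint1*-/- replicate 1 just below WT replicate 2. The level was 89.6% of WT (log2 fold change −0.16, SE 0.040 and edgeR adjusted p = 0.00776).

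*Peg12*, of the same cluster, had 90 to 111 counts in WT and 77 to 104 in *Hint1*-/- samples, and its adjusted p was 0.298 in edgeR's test. *Snrpn* encodes a protein of the splicing machinery and is made from the same transcript as *Snurf*, and in 6 of 8 samples the 2 symbols carried equal estimated counts (within 0.005), so their reads were shared out. *Snrpn* had 203.5, 190.0, 179, and 193 estimated counts in WT samples and 183.5, 197, 191.5, and 203.5 in *Hint1*-/- samples. The groups overlapped, and the sum of both symbols had a log2 fold change of 0.05 (SE 0.060 and edgeR adjusted p = 0.637), a sum taken after the data had been seen.

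*Grb10* encodes an adaptor that binds the insulin and IGF1 receptors and restrains growth, and is expressed from the maternal copy in most tissues and from the paternal copy in neurons. It had 3041, 2902, 2932, and 2973 counts in WT samples and 2655, 2791, 2683, and 2665 in *Hint1*-/- samples. *Hint1*-/- replicate 2 stood above the rest of its group and below every WT sample. *Grb10* reached 91.8% of its WT level (log2 fold change −0.12, SE 0.033 and edgeR adjusted p = 0.0108).

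Of the members with an adjusted p under 0.05, *Zrsr1* alone was higher. It encodes a splicing factor of the U2AF family and arose as a copy of an X-linked gene, and it lies inside *Commd1* on the opposite strand, so its counts are uncertain. It had 160, 181, 155, and 169 estimated counts in WT samples and 177, 192, 197, and 206 in *Hint1*-/- samples. WT replicate 2 lay above *Hint1*-/- replicate 1, so the groups overlapped. Its log2 fold change was 0.23 (SE 0.079 and edgeR adjusted p = 0.0494), and it missed the threshold in 13 of 15 alternative settings, where its adjusted p ran from 0.0314 to 0.179.

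**Figure D1:**
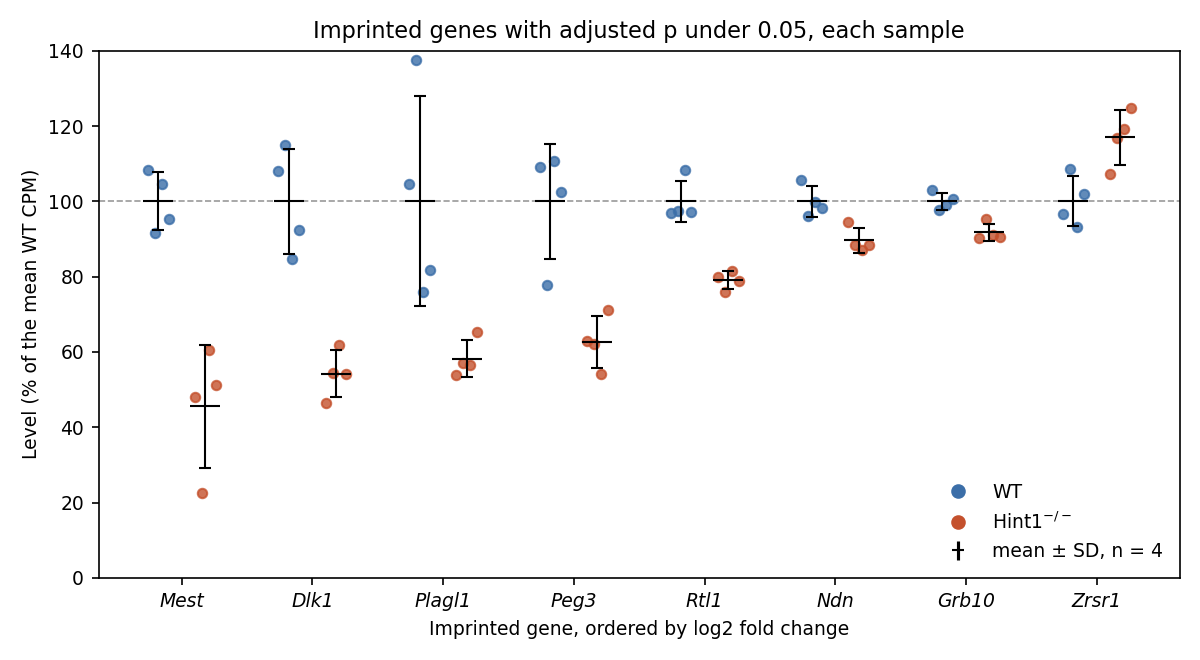
Level of the 8 imprinted genes with an adjusted p under 0.05, as a percent of each gene's mean WT CPM (vertical axis), in each WT and *Hint1*-/- sample (points), with mean ± SD (n = 4, black). *Mest* in *Hint1*-/- samples ran from 22.5% to 60.6% of the WT mean, *Grb10* from 90.4% to 95.2%, and *Zrsr1* from 107% to 125%.

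The genotypes did not overlap in 8 of the 25 members, where 23.0% of all genes tested showed this. Of the 13535 genes tested, 1494 did not overlap and were lower, and 1616 did not overlap and were higher. The 8 were *Mest*, *Dlk1* (tested only through its WT samples), *Plagl1*, *Peg3*, *Rtl1*, *Ndn*, *Grb10*, and *Blcap*, all lower in *Hint1*-/- MASMCs.

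The other paternally expressed members had edgeR adjusted p-values above 0.05. *Sgce*, for a sarcoglycan of the cell membrane, had 1166, 1191, 1214, and 1148 counts in WT and 1157, 1116, 1114, and 1106 in *Hint1*-/- samples, which overlapped (edgeR adjusted p = 0.262). *Impact*, which dampens the amino acid stress kinase GCN2, had 2012, 2090, 2172, and 2037 estimated counts in WT and 1962, 2026, 1990, and 2050 in *Hint1*-/- samples, which overlapped (edgeR adjusted p = 0.473). *Gab1*, a docking protein below growth factor receptors whose imprint is known from the placenta, had 324, 354, 304, and 337 estimated counts in WT samples and 251, 322, 299, and 279 in *Hint1*-/- samples. *Hint1*-/- replicate 2 lay above WT replicate 3, and the log2 fold change was −0.19 (SE 0.075 and edgeR adjusted p = 0.0887).

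Among the rest, *Peg10*, a retrotransposon-derived gene of the placenta that neighbors *Sgce*, had 48 to 67 counts in WT and 48 to 71 in *Hint1*-/- samples. *Sfmbt2*, a Polycomb group gene, had the highest log2 fold change of the 25 members at 0.43 (SE 0.16 and edgeR adjusted p = 0.0690), with 46 to 81 counts in WT and 75 to 106 in *Hint1*-/- samples. *Nnat* and *Nap1l5*, which lie inside *Blcap* and *Herc3* on the opposite strands, reached at most 35 and 14 counts per library, with log2 fold changes of 0.04 each. Across the 16 paternally expressed members tested, 7 had an adjusted p under 0.05, 6 lower (*Dlk1*, tested only through its WT samples, among them) and 1 higher, where 10.2% of all genes were lower and 11.2% higher, and the median log2 fold change was −0.11. That median was −0.06 with at least 10 counts required in all samples, a setting that no longer tested *Mest*, *Dlk1*, and *Nap1l5*, and −0.15 without WT replicate 3.

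Of the 6 maternally expressed members tested, edgeR gave 0 with an adjusted p below 0.05 and 2 with an unadjusted p below 0.05, and DESeq2 and limma-voom also gave 0. In edgeR, 21.5% of all genes had an adjusted p below 0.05, and 4445 of 13535 had an unadjusted p below 0.05. *Grb10*, maternally expressed in most tissues, was counted apart from these 6 and was lower (log2 fold change −0.12, edgeR adjusted p = 0.0108). The count of 0 therefore depends on how *Grb10* is classed. The median log2 fold change of the 6 members was −0.10, with a range from −0.48 to 0.19, and the difference between the parental classes was not tested. *Tfpi2*, which encodes a protease inhibitor of the extracellular matrix, was the most abundant, with 500, 521, 513, and 465 counts in WT and 469, 441, 446, and 449 in *Hint1*-/- samples. The lowest WT sample lay below the highest *Hint1*-/- sample, and the log2 fold change was −0.14 (SE 0.053 and edgeR adjusted p = 0.0764). The membrane transporter gene *Slc22a18* had 181 to 216 counts in WT and 170 to 214 in *Hint1*-/- samples. *Ppp1r9a*, *Asb4*, and *Ascl2* reached at most 89.9, 44, and 46 counts per library, and the genotypes overlapped in each.

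*Gnas* encodes the stimulatory G protein alpha subunit that links receptors to cyclic AMP, along with other products read from 1 parental copy. It had 23119, 21719, 23062, and 22413 counts in WT samples and 22970, 22596, 23326, and 22703 in *Hint1*-/- samples. The genotypes overlapped, with WT replicate 2 the lowest sample and *Hint1*-/- replicate 3 the highest, and the log2 fold change was 0.03 (SE 0.032 and edgeR adjusted p = 0.543). The count is per gene and does not separate the biallelic from the imprinted transcripts.

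*Blcap*, for a small membrane protein, had 1359, 1316, 1286, and 1319 counts in WT samples and 1258, 1247, 1234, and 1204 in *Hint1*-/- samples. All *Hint1*-/- samples lay slightly below all WT samples, yet the log2 fold change of −0.08 (SE 0.035) did not pass edgeR's test (adjusted p = 0.0991).

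**Figure D2:**
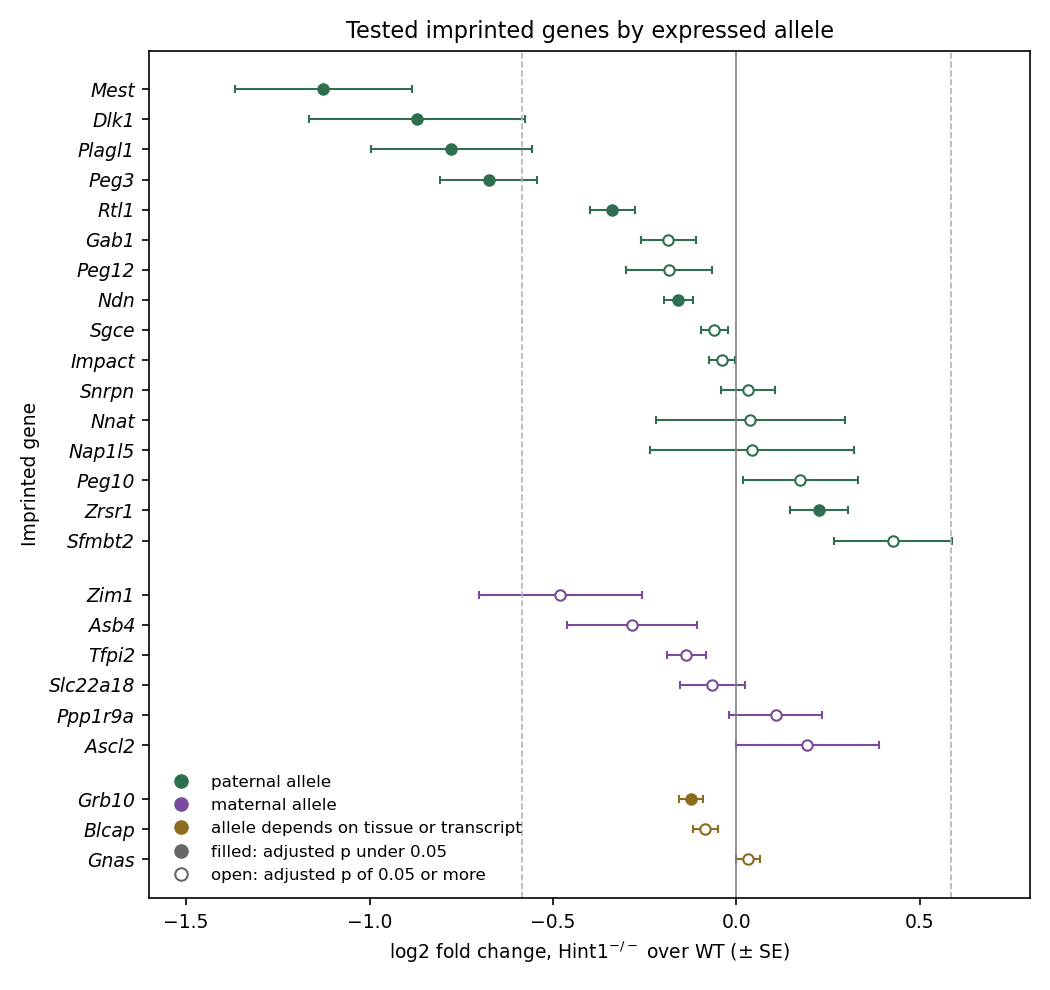
Log2 fold change, *Hint1*-/- over WT, with its standard error (horizontal axis) for the 25 tested imprinted genes, grouped by expressed parental copy. Filled points have an adjusted p under 0.05 and dashed lines mark a fold change of 1.5, which *Mest*, *Dlk1*, *Plagl1*, and *Peg3* passed on the lower side.

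Levels are compared between genes as CPM per kb of exon. *Gnas* led with 96.6 ± 3.01 CPM per kb in WT (SD, n = 4), followed by *Blcap* at 20.7 ± 0.505, *Impact* at 19.4 ± 0.632, *Ndn* at 17.0 ± 0.695, *Grb10* at 15.6 ± 0.358, and *Tfpi2* at 13.7 ± 0.652 CPM per kb. The 4 members past both limits stood low in this order. *Peg3* and *Mest* lay within each other's spread, at 0.386 ± 0.0587 and 0.382 ± 0.0296 CPM per kb in WT, and *Plagl1* and *Dlk1* were at 0.217 ± 0.0606 and 0.110 ± 0.0153 CPM per kb. *Gnas* therefore set the sum over all 31 members, with a mean of 1617 ± 40.3 CPM for WT and of 1605 ± 9.77 CPM for *Hint1*-/- cells (SD, n = 4). Without *Gnas*, which held 66.8% of the WT sum, the other 30 came to 537 ± 6.77 CPM for WT and 501 ± 6.09 CPM for *Hint1*-/- cells.

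**Figure D3:**
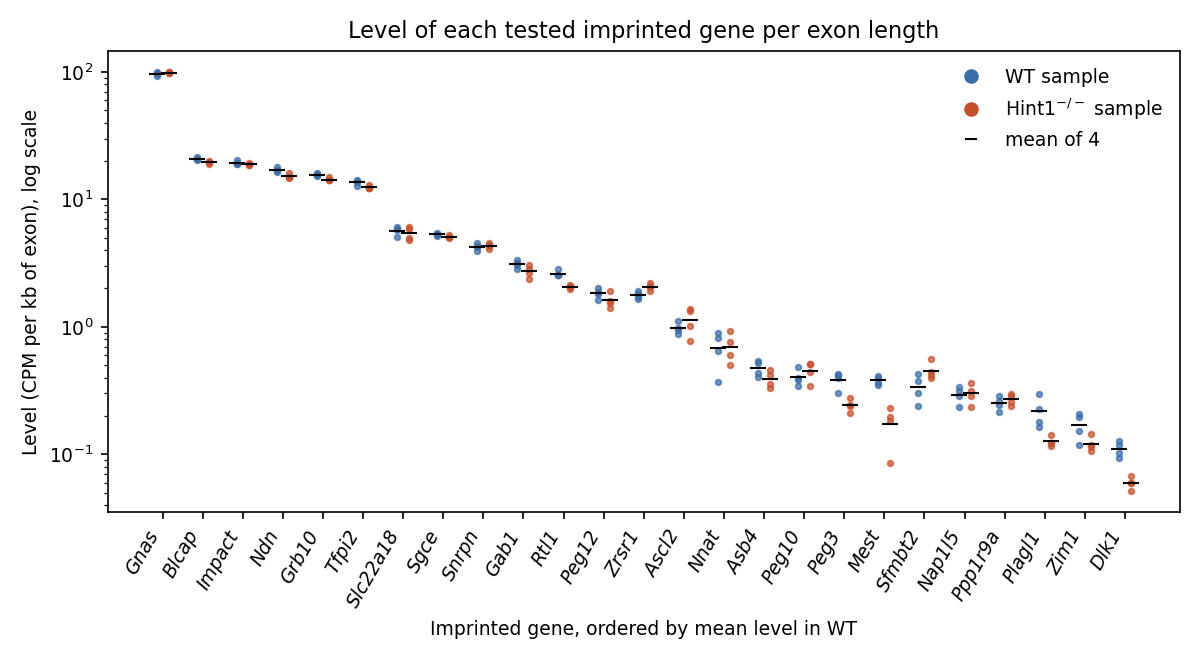
Level of each of the 25 tested imprinted genes in CPM per kb of exon on a log scale (vertical axis), in each sample (points) with the mean of 4 (black bar), ordered by the mean in WT. *Gnas* stood near 96.6 CPM per kb in WT, and *Dlk1* near 0.110.

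The 6 members that had a row but were not tested were near the limit of detection. *Cdkn1c*, an inhibitor of the cell cycle, had 4 to 7 counts in WT and 2 to 7 in *Hint1*-/- samples, and *Mkrn3*, for a ubiquitin ligase, had 4 to 8 and 4 to 9. *Phlda2*, *Zdbf2*, *Magel2*, and *Usp29* reached at most 3 counts per library, and a difference in them was not detectable at this depth. *H19*, *Meg3*, *Rian*, *Mirg*, *Kcnq1ot1*, and *Airn*, all noncoding RNAs and among them the controlling transcripts of their clusters, were not analysed here.

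Among 42 other genes described as imprinted in mice, 26 were tested and 6 (23.1%) reached an edgeR adjusted p below 0.05, 1 lower and 5 higher, near the 21.5% of all genes. Their median log2 fold change was 0.03. The 2 past both limits (7.69%), *Igf2* and *Dcn*, were both higher, where 1.34% of all genes were higher past both limits. *Igf2*, the fetal growth factor expressed from the paternal copy beside *H19*, had 100, 88, 85, and 86 counts in WT samples and 174, 193, 198, and 146 in *Hint1*-/- samples. The lowest *Hint1*-/- value was well above the highest WT value, opposite in direction to *Mest*, *Dlk1*, *Plagl1*, and *Peg3* (log2 fold change 1.00, SE 0.11 and edgeR adjusted p = 1.64e-06). *Igf2r*, the maternally expressed receptor that clears IGF2, had 4186 to 4461 counts in WT and 3944 to 4559 in *Hint1*-/- samples (log2 fold change 0.00, SE 0.040 and edgeR adjusted p = 0.981). *Dcn* encodes decorin, a matrix proteoglycan whose imprint is known from the placenta, and it had a log2 fold change of 0.83 (SE 0.035 and edgeR adjusted p = 4.36e-12).

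Of 10 genes of the IGF pathway, *Igf2* and *Igf2r* among them, 6 reached an edgeR adjusted p below 0.05, 4 lower and 2 higher, beside 10.2% and 11.2% of all genes. Without *Igf2bp1*, tested only through its WT samples, the lower ones were *Igf1*, *Igf2bp2*, and *Igf2bp3*. *Igf2bp3* and *Igf2bp1* encode fetal RNA-binding proteins that attach to *Igf2* messenger RNA. *Igf2bp3* had 212, 230, 244, and 218 counts in WT and 122, 113, 97, and 131 in *Hint1*-/- samples, with no overlap (log2 fold change −0.95, SE 0.091 and edgeR adjusted p = 3.79e-07). *Igf2bp1* had 10 to 19 counts in WT and 4 to 7 in *Hint1*-/- samples, and since 4 WT and 0 *Hint1*-/- samples reached the filter's minimum, it was tested only because it was high in WT and its test is no support for a difference.

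Of 17 genes that lay down, keep, or erase imprints, such as *Dnmt1*, *Zfp57*, *Trim28*, and *Ctcf*, 15 were tested. The edgeR fit gave 0 with an adjusted p below 0.05 and 1 with an unadjusted p below 0.05, DESeq2 gave 0, and limma-voom gave 1, where 21.5% of all genes had an adjusted p below 0.05 in edgeR. That gene was *Tet1*, named after its values were seen, with a sum of 54 counts over the WT samples and 91 over the *Hint1*-/- samples (log2 fold change 0.76, SE 0.27 and edgeR adjusted p = 0.0510).

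Position was not used to choose the members. Within 500 kb of a member, 118 other genes were tested, and 4 of them (3.39%) passed both limits, 1 lower and 3 higher, near the 2.83% of all genes. *Igf2* lies 72.6 kb from *H19*, and *Ifitm10*, 202 kb from *H19*, had 38 to 53 counts in WT and 20 to 30 in *Hint1*-/- samples (log2 fold change −0.80, SE 0.19 and edgeR adjusted p = 0.00547). Beside *Sfmbt2*, the hyaluronan-binding protein genes *Itih5* and *Itih2* were higher, with log2 fold changes of 0.90 (SE 0.089 and edgeR adjusted p = 5.51e-07) and 0.69 (SE 0.043 and edgeR adjusted p = 9.80e-10). No gene within that distance of *Mest*, *Peg3*, *Plagl1*, or *Dlk1* passed both limits. Near *Dlk1* the genes tested were *Begain* and *Wdr25*, 385 and 424 kb away, so little of that cluster was covered. *Rtl1* of the same cluster is a member and is not counted among the neighbors. *Copg2*, which overlaps *Mest* by 912 bases on the opposite strand, had a log2 fold change of −0.07 (edgeR adjusted p = 0.436).

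Promoter sequence was compared next, from RefSeq windows of 250 bases before and 50 bases after each transcript start on GRCm38.p6. A window was found for 31 of the 37 members, 48 windows in all. Their median GC content was 56.5%, beside 52.7% over all 32851 windows, and their median ratio of observed to expected CpG was 0.596, beside 0.384. The hexamer TGCCGC, the letters bound by the imprint-keeping protein ZFP57 when methylated, was searched on both strands. It was in 10 of the 48 member windows and in 3813 of all windows (11.6%). By gene, 8 of the 26 members with a row and a window held it (30.8%), beside 18.6% of all genes of the count tables with a window.

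The bases before the starts of the 4 genes past both limits are shown because these genes moved the same way, read 5′ to 3′ on the gene's strand and kept to bases outside annotated exons, with TGCCGC or its reverse complement in capitals. RefSeq gives *Mest* 3 starts, and the window printed, which held the hexamer, was picked after the search. *Mest* at chr6:30737800-30738049 (+), *Dlk1* at chr12:109452573-109452822 (+), *Peg3* at chr7:6730432-6730577 (−), and *Plagl1* at chr10:13090582-13090690 (+) read as follows:
Mest: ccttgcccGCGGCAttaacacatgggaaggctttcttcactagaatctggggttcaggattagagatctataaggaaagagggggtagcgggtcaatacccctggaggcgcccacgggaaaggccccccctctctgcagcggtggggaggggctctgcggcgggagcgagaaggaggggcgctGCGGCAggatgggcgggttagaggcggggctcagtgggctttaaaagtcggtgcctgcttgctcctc
Dlk1: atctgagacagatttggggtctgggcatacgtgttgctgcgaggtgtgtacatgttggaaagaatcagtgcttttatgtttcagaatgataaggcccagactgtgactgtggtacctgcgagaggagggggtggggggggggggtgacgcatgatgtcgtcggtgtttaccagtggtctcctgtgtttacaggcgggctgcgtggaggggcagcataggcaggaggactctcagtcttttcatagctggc
Peg3: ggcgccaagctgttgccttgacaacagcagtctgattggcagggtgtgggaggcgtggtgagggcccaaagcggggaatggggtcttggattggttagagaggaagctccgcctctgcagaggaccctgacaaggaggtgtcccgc
Plagl1: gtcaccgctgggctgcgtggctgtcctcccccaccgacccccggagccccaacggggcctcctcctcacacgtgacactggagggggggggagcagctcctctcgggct

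The *Mest* stretch held the hexamer at 2 places, as did a window offset by 3 bases, while the window of its remaining start held it at 0 places. For the others, the whole *Plagl1* window held it once, within an annotated exon that is not shown, and the windows of *Peg3* and *Dlk1* held it at 0 places. A match is only a match of letters, and no methylation or binding was measured.

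Imprinted clusters also hold microRNAs, small RNAs that pair with messenger RNAs through bases 2 to 8, the seed. RefSeq places the 2 arms of miR-335 inside *Mest* on its own strand, 11 mature microRNAs from 6 genes within the bounds of *Rtl1* on the opposite strand, each complementary to the *Rtl1* transcript, and 2 from 1 gene (miR-3071) on the strand of *Rtl1*, which are not shown. The arms of miR-335 and the 5p arm, or the only arm, of each microRNA opposite to *Rtl1* are shown because *Mest*, which holds the former, and *Rtl1*, which the latter could pair with, were lower, with the seed in capitals. On GRCm38.p6, the arms of miR-335 lie at chr6:30741314-30741336 and chr6:30741354-30741375 (+), and the 6 opposite to *Rtl1* lie from 109590459 (miR-431-5p) to 109595352 (miR-136-5p) on chromosome 12 (+). Their levels were not measured, as the libraries were made from messenger RNA, and any part of theirs in the levels of *Mest* or *Rtl1* was not tested.
mmu-miR-335-5p: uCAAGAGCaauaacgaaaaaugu
mmu-miR-335-3p: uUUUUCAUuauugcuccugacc
mmu-miR-431-5p: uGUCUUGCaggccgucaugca
mmu-miR-433-5p: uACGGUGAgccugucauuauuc
mmu-miR-127-5p: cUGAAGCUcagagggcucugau
mmu-miR-434-5p: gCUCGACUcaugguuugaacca
mmu-miR-432: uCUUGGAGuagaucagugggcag
mmu-miR-136-5p: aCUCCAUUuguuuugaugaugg

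The 8 seeds differed from each other, so none of these microRNAs shared a seed with another in the set.

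Marker genes of the cells that an aortic culture can hold also moved between the genotypes. All 6 smooth muscle markers were tested, 4 were lower and 1 was higher at an edgeR adjusted p below 0.05, beside 10.2% and 11.2% of all genes, and *Acta2* was the most abundant. Their summed level was 1466, 1350, 1465, and 1467 CPM in WT samples against 1183, 1206, 1157, and 1115 CPM in *Hint1*-/- samples, or 81.1% of WT. *Myh11* and *Cnn1* passed both limits, with log2 fold changes of −1.54 and −1.12, where 1.49% of all genes were lower past both limits. By q-PCR, the study reports *Cnn1*, *Acta2*, and *Tagln* as higher in *Hint1*-/- cells under PDGF-BB. By Western blot it also reports more α-SMA (from *Acta2*) and SM22 (from *Tagln*) and less Vimentin in these cells. Protein was not measured in this series. In its RNA counts *Acta2* was lower as well (log2 fold change −0.51, edgeR adjusted p = 1.35e-08), and *Tagln* did not pass (log2 fold change −0.11, edgeR adjusted p = 0.0696).

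All 6 macrophage markers were lower at an edgeR adjusted p below 0.05, as were 10.2% of all genes, and also at an unadjusted p below 0.05, and none of edgeR, DESeq2, or limma-voom put any of them past the limit on the fold change. Their sum, led by *Lyz2*, was 1957, 2076, 2027, and 2265 CPM in WT samples against 1583, 1683, 1663, and 1597 CPM in *Hint1*-/- samples, above that of the smooth muscle markers in every sample. Of 6 fibroblast markers, 3 were higher and 2 lower at an edgeR adjusted p under 0.05, beside 11.2% and 10.2% of all genes. The sum of the 6, led by *Dcn*, was 1773, 1729, 1751, and 1800 CPM in WT against 2668, 2753, 2618, and 2631 CPM in *Hint1*-/- samples. Past both limits were *Dcn* and *Lum* (log2 fold changes 0.83 and 0.88), higher, and *Dpt* (log2 fold change −0.79), lower, beside 1.34% and 1.49% of all genes. *Dcn* alone went from a mean of 1112 CPM in WT to 1975 CPM in *Hint1*-/- samples and so set most of the sum's rise.

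Of 4 Schwann cell and neural crest markers, 3 passed both limits and were lower, beside 1.49% of all genes. Their sum, led by *Ngfr*, was 41.3, 39.4, 39.3, and 36.1 CPM in WT samples against 8.49, 6.72, 7.89, and 7.66 CPM in *Hint1*-/- samples, or 19.7% of WT. The 3 were *Ngfr*, *Sox10*, and *Foxd3*, with log2 fold changes from −2.73 to −2.28, and *S100b* had a log2 fold change of 0.03 (edgeR adjusted p = 0.925).

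The 3 of 8 cardiac muscle markers that could be tested, *Myh6*, *Myl7*, and *Tnnt2*, passed both limits and were higher, beside 1.34% of all genes. *Myh6* and *Myl7* reached the filter's minimum in 0 WT and 4 *Hint1*-/- samples, so they were tested only because they were high in *Hint1*-/- samples. The tests of *Myh6* and *Myl7* are therefore no support for a difference. The sum of the 8, led by *Tnnt2*, was 2.11, 1.86, 1.29, and 2.16 CPM in WT and 7.48, 6.96, 8.32, and 4.72 CPM in *Hint1*-/- samples. *Myl7* had 0 counts in every WT sample and 13 to 34 in *Hint1*-/- samples. Among the markers not tested, *Actc1* had 2 counts summed over the WT samples and 52 over the *Hint1*-/- samples. The same sums were 7 and 7 for *Myl2* and 19 and 11 for *Nppa*. *Mb* had 0 in every WT sample and at most 2.02 in a *Hint1*-/- sample. *Pln* had 0 in every *Hint1*-/- sample and at most 1 in a WT sample, so *Mb* and *Pln* were too low to show a difference.

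The 6 endothelial markers, of which 3 were tested, summed to 6.23, 4.19, 5.69, and 5.08 CPM in WT and 4.15, 5.22, 3.70, and 4.09 CPM in *Hint1*-/- samples, led by *Cdh5*. For these, edgeR gave 0 with an adjusted p below 0.05, beside 21.5% of all genes, and 1 with an unadjusted p below 0.05, where DESeq2 and limma-voom gave 0. The 5 skeletal muscle markers with a row, led by *Acta1*, summed to 0.767, 0.477, 0.765, and 1.10 CPM in WT and 0.820, 0.870, 0.914, and 0.722 CPM in *Hint1*-/- samples, and were not tested. Among them, *Myog* had 0 counts in every *Hint1*-/- sample and at most 2 in a WT sample. The 4 adipocyte markers with a row, led by *Fabp4*, summed to 50.9, 48.1, 47.7, and 54.9 CPM in WT and 55.1, 54.8, 58.0, and 50.7 CPM in *Hint1*-/- samples. *Cidec* had 0 counts in every *Hint1*-/- sample and at most 1 in a WT sample, too low to show a difference. The 1 adipocyte gene tested had an unadjusted p below 0.05 in edgeR, while edgeR, DESeq2, and limma-voom gave 0 at an adjusted p below 0.05. These lists moved, or held, beside the imprinted genes, and their part in the levels of *Mest*, *Peg3*, *Plagl1*, *Dlk1*, and the other members was not tested.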

How the data were processed

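RNA from 4 WT and 4 *Hint1*-/- MASMC samples, grouped by the sample labels, was sequenced as messenger RNA. The deposited values were estimated counts, not normalized and in part fractional, for each gene symbol. The study's methods name HISAT2 with mm10, and the submitters' processing notes name Bowtie2, RSEM 1.3.1, DESeq2 1.4.5, and mm10 without roles. The gene annotation and use of strand are not given in the sources used here.

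Counts were rounded to whole numbers. Genes were filtered with filterByExpr, scaled by TMM, and tested two-sided by glmQLFit and glmQLFTest in a model of genotype alone (R 4.3.3, edgeR 4.0.16), with Benjamini-Hochberg adjustment over all 13535 genes. The standard error is the log2 fold change over the square root of F. CPM used the TMM-scaled library sizes, and log2 CPM a prior count of 2. Depth was 20778077 to 20888041 counts per sample, and without molecular identifiers the precision of low counts covers counting error only.

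Members and lists were chosen with earlier results of these data known. Values in every sample are given for members with an adjusted p under 0.05 or a mean of at least 10 CPM. Other genes named were *Igf2*, *Igf2r*, and listed genes or neighbors past both limits, and the remaining names were chosen after their values were seen. Some markers of the Schwann cell and neural crest list are not reported here and were left out of its count and sum. Imprinted class and cluster came from general knowledge. Positions and exon lengths came from GENCODE M21, which gave 1 position for 17709 of 18533 symbols, and promoter and microRNA sequences from RefSeq. Of 5 sex genes, 4 were tested and 1 was lower by edgeR's adjusted p, with a mean sum of 163 CPM for WT and 165 CPM for *Hint1*-/- cells, led by the Y-linked *Ddx3y*, as the stated male mice require.

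Alternatives were RLE and upper-quartile scaling, no filter, a minimum of 10 counts in all samples, a block for replicate number, fits lacking each sample in turn, DESeq2 1.42.0, limma-voom (limma 3.58.1), glmTreat against a fold change of 1.5, windows of 200 and 1000 kb, and, added after the data were seen, the sum of *Snrpn* and *Snurf*, which is not among the alternatives counted. The pipeline was tested on simulated data.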

Additional observations from a re-analysis of the deposited data

Results flagged for a closer look

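In 103 groups of 4 values, 1 sample was marked as far from the other 3 where its gap to the nearest, over the group's range and both on log2 CPM, passed the critical value of Dixon's test, which chance passes in about 1 in 20 groups (5.15 of 103), and 4 groups were marked. Among imprinted genes, *Rtl1* in WT replicate 3 (376 estimated counts against 336 to 340 in the others) had a ratio of 0.951, and *Grb10* in *Hint1*-/- replicate 2 (2791 counts against 2655 to 2683) had a ratio of 0.859. Among markers, *Myh6* in *Hint1*-/- replicate 4 (32.3 estimated counts against 53.6 to 58.5) had a ratio of 0.876, and *Acta2* in WT replicate 2 (15956 against 17467 to 17855) had 0.837. The ratios are of log2 CPM and differ from those of the counts printed beside them. The 4 marks fell on 4 different libraries.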

How the results depend on the processing

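None of the results recomputed changed direction in an alternative. Leaving glmTreat aside, *Mest* passed both limits in all 14 alternative fits that tested it and *Peg3* in all 15, with adjusted p-values up to 0.00893 and 0.00562. *Rtl1*, *Ndn*, and *Grb10* had an adjusted p under 0.05 in all 15 (up to 0.00320, 0.0340, and 0.0397). *Dlk1* lost its call in 11 of 14 (adjusted p 0.0321 to 0.211), *Plagl1* without WT replicate 2, and *Zrsr1* its adjusted p in 13 of 15, and the cause was not tested. Over these alternative fits, the log2 fold change ran from −0.94 to −0.80 for *Dlk1* and from 0.19 to 0.27 for *Zrsr1*. *Tfpi2* gained an adjusted p under 0.05 without WT replicate 4 (0.0342, range 0.0342 to 0.203) and *Gab1* without *Hint1*-/- replicate 2 (0.0320, range 0.0320 to 0.269).

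Against a fold change of 1.5 itself, glmTreat called 108 of all genes in place of 383, and 0 members in place of 4, with 1 member at an unadjusted p under 0.05, where DESeq2 called 3 and limma-voom 4. With at least 10 counts in every sample, 2 members passed both limits and 5 had an adjusted p under 0.05 among 22 tested, with *Mest*, *Dlk1*, and *Nap1l5* no longer tested and *Zrsr1* at an adjusted p of 0.0581. With each sample left out, 350 to 390 genes and 2 to 3 members passed both limits, 6 to 8 members had an adjusted p under 0.05, and the median was −0.12 to −0.07. Within 200 kb, 2 neighbors passed both limits, and within 1000 kb, 5.

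Same-numbered samples did not deviate together (correlations −0.05, 0.08, 0.01, and 0.02 over genes), and WT replicates 1 and 3 correlated best with another number. With the replicate block, 382 genes and 3 members passed both limits, and 7 members had an adjusted p under 0.05. Counts under about 50 per sample limit what *Mest*, *Plagl1*, and *Dlk1* can show. The ratios of *H19* to *Igf2* and *Meg3* to *Dlk1* were not run under any setting, since *H19* and *Meg3* were not analysed here.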
